A study of Mus musculus with 9 samples.

Results

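The glycolysis, lactate and pyruvate entry genes described here are 34 genes that take glucose into the cell, break it down to pyruvate, exchange pyruvate with lactate and carry pyruvate into the mitochondrion. They were taken by symbol from the 30865 genes of a raw count table of mouse lung RNA; all 34 symbols were found, and all 34 passed the filter on low counts. For Aldoa, whose symbol stood on 2 rows, the row with the higher mean count was used. The table covers 9 libraries of total RNA, 3 labelled normoxia (replicates N1 to N3), 3 labelled hypoxia (H1 to H3) and 3 whose treatment is given as a Hif-1α knockdown following hypoxia (K1 to K3). All samples carry the tissue label lung, although every title begins with the word Muscle. The labels used here give no strain, genotype, age, oxygen level, exposure time or method of knockdown, and leave unsaid how many animals the libraries came from, so that a p-value here speaks only of the spread between libraries, part of which may be technical.

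Glycolysis converts 1 glucose to pyruvate in the cytosol and yields ATP without oxygen. Lactate dehydrogenase can reduce that pyruvate to lactate, which leaves the cell through monocarboxylate transporters, or the pyruvate can enter mitochondria and be oxidised by the pyruvate dehydrogenase complex. HIF-1, a transcription factor whose α subunit is stabilised at low oxygen, is known to raise transcription of many of these genes, and the series title names lactylation, a protein modification that is made from lactate.

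Levels are given as CPM, counts scaled to a common library total corrected by the trimmed mean of M-values (TMM), and differences as log2 fold changes with standard errors. Calls are Benjamini-Hochberg adjusted p-values under 0.05 from the quasi-likelihood test of edgeR, adjusted over 17578 genes. Library totals were 15566485 to 18046442 counts. Hif1a, the gene named in the knockdown label, was at 80.3, 87.8 and 78.6 CPM in N1 to N3, at 93.4, 98.3 and 88.6 CPM in H1 to H3 and at 86.4, 85.5 and 85 CPM in K1 to K3. The K libraries lay below the H libraries without overlap, but the difference of -0.13 (SE 0.08, 95% interval -0.29 to 0.04, adjusted p = 0.62) did not pass the test, so the transcript gave no called knockdown and the third group is described as knockdown-labelled throughout. The 6 alveolar type 2 markers summed to 20941 to 30757 CPM in every library, against 3.4 to 18.4 CPM for the 6 skeletal muscle markers, so the RNA carried the defining genes of lung. The 8 cardiomyocyte markers summed to 898, 277 and 148 CPM in N1 to N3, 224, 1186 and 82.4 CPM in H1 to H3 and 600, 39.2 and 454 CPM in K1 to K3. N1 and H2 held the most heart RNA of their groups, and the counts of members called at an adjusted p under 0.05 in each pairwise comparison are therefore also given without N1 and H2, an alternative chosen after the data were seen.

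In hypoxia against normoxia, Pfkfb3 and Gpi1 rose and no member fell. Pfkfb3 makes fructose 2,6-bisphosphate, the strongest allosteric activator of phosphofructokinase 1, and Gpi1 interconverts glucose 6-phosphate and fructose 6-phosphate. The 2 members called higher are 5.88% of the 34, beside 2.77% of all genes tested, and the 0 called lower stand beside 1.45% (4.22% of all genes in either direction). At an unadjusted p under 0.05 there were 9 members, 26.5% beside 17.5% of all genes, of which Ldhb was the lower one, and DESeq2 and limma-voom also called 0 members lower. The fold change was above 0 for 29 of 34 members, beside 48.7% of all genes, and the median was 0.13 over the members and -0.01 over all genes. In 5 members (Eno1, Gpi1, Hk2, Pfkfb3 and Slc16a1) every hypoxia library lay above every normoxia library, 14.7% of the members beside 10.6% of all genes. No member lay wholly below, where 11.6% of all genes did.

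**Figure D1:**
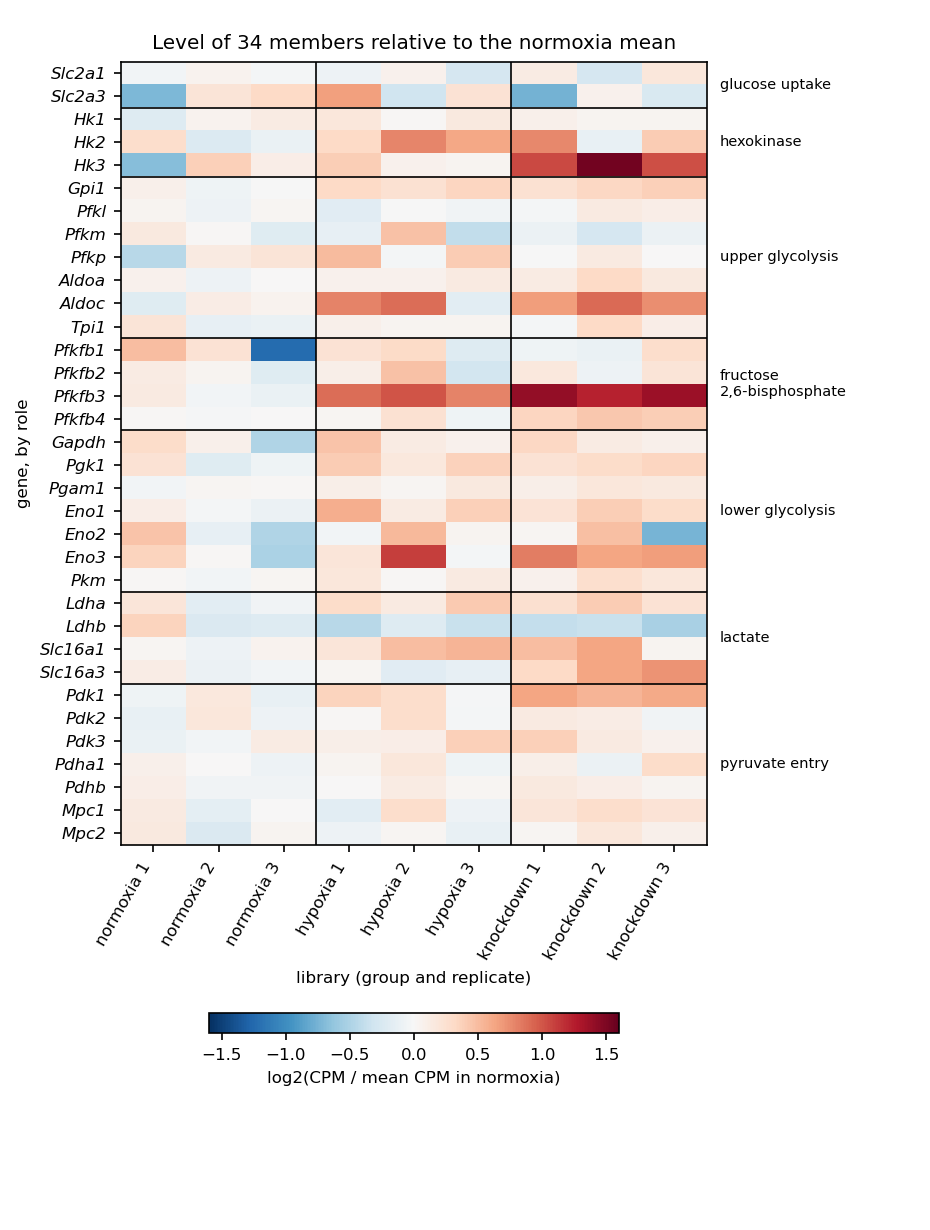
Level of each of the 34 genes in each of the 9 libraries, as the log2 difference from that gene's mean over the normoxia libraries, with genes in rows grouped by role and libraries in columns. The Pfkfb3 row darkens stepwise from normoxia to hypoxia to the knockdown-labelled libraries, the Hk3 row is raised in the knockdown-labelled libraries, and most rows move little.

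Pfkfb3 (chr2:11471433-11554077, minus strand, GRCm38) was at 126, 110 and 106 CPM in N1 to N3, 211, 229 and 197 CPM in H1 to H3 and 302, 268 and 294 CPM in K1 to K3. The 3 groups did not overlap at all, with normoxia lowest and the knockdown-labelled libraries highest. Group means were 114 ± 10, 213 ± 16 and 288 ± 18 CPM (SD, n = 3 each). Hypoxia exceeded normoxia by 0.90 (SE 0.09, 1.86-fold, adjusted p = 0.0014), and the call held in 9 of 9 fits that left out 1 library, with 0.85 to 0.98. Its relatives Pfkfb1, Pfkfb2 and Pfkfb4, which hold the same kinase and phosphatase pair in other proportions, differed by 0.13, 0.13 and 0.07 between hypoxia and normoxia, and none passed (adjusted p 0.75 to 0.91). Pfkfb1 was scarce, at 0.90 to 2.97 CPM in the 9 libraries.

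Gpi1 (chr7:34201330-34230336, minus strand) was at 210, 189 and 198 CPM in normoxia, 248, 236 and 253 CPM in hypoxia and 235, 251 and 259 CPM in the knockdown-labelled libraries. All hypoxia and knockdown-labelled libraries lay above all normoxia libraries. Hypoxia exceeded normoxia by 0.31 (SE 0.07, 1.24-fold, adjusted p = 0.046). This call held only without H2 among the 9 fits that left out 1 library (adjusted p = 0.044), and without any other library the adjusted p was 0.053 to 0.16. It was also lost with limma-voom (adjusted p = 0.055), without the filter on low counts (0.059) and with the knockdown-labelled libraries left out of the fit (0.068).

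Among the transporters and hexokinases no member passed in hypoxia in edgeR over all 9 libraries with the filter on low counts. Slc2a1, the basal glucose transporter GLUT1, was at 28.0, 30.0 and 28.3 CPM in normoxia, 27.1, 30.3 and 23.9 CPM in hypoxia and 31.6, 24.0 and 32.6 CPM in the knockdown-labelled libraries. These ranges overlapped throughout, and the hypoxia difference was -0.09 with a 95% interval of -0.38 to 0.21. Hk2, the inducible hexokinase that traps glucose in the cell, was at 28.2, 19.9 and 21.6 CPM in normoxia, 28.9, 39.9 and 35.6 CPM in hypoxia and 39.6, 21.4 and 30.9 CPM in the knockdown-labelled libraries. Hypoxia lay just above normoxia without overlap, but the difference of 0.58 (SE 0.22, adjusted p = 0.18) did not pass. Without the filter on low counts Hk2 passed. Hk1, the housekeeping hexokinase, differed by 0.12 and the neuronal-type transporter Slc2a3 by 0.25, with adjusted p of 0.57 and 0.75.

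The 7 genes of the later steps of the pathway, from Gapdh to Pkm, had hypoxia differences of 0.10 to 0.51 with a median of 0.23. That median is the value of Gapdh, which had only 51 to 106 counts a library, and the 0.51 is that of Eno3. None of the 7 passed in edgeR over all 9 libraries with the filter on low counts. The largest in counts of reads was Pkm, the pyruvate kinase that forms pyruvate and ATP, at 342, 327 and 345 CPM in normoxia, 383, 342 and 374 CPM in hypoxia and 355, 407 and 383 CPM in the knockdown-labelled libraries. Its hypoxia range overlapped that of normoxia, and its difference was 0.12 (95% interval -0.06 to 0.29, adjusted p = 0.50). Eno1, an enolase that makes phosphoenolpyruvate, had 124, 112 and 108 CPM in normoxia and 171, 125 and 149 CPM in hypoxia, a gap without overlap that came to 0.37 (SE 0.11, adjusted p = 0.096). Eno1 passed with DESeq2, without the filter on low counts and without H2. Pgk1, the first ATP-yielding step, differed by 0.32 (adjusted p = 0.15).

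Ldha, which favours the reduction of pyruvate to lactate, was at 330, 256 and 277 CPM in normoxia, 353, 316 and 383 CPM in hypoxia and 345, 380 and 339 CPM in the knockdown-labelled libraries. N1 reached above H2, so the hypoxia and normoxia ranges overlapped in that pair, and the difference of 0.29 (SE 0.11, adjusted p = 0.19) did not pass. Ldhb, the partner subunit that favours the oxidation of lactate, was at 253, 167 and 171 CPM in normoxia, 145, 170 and 154 CPM in hypoxia and 151, 154 and 138 CPM in the knockdown-labelled libraries. N1 stood far above its group, H2 lay within the normoxia range, and the difference was -0.33 (SE 0.15, adjusted p = 0.27). Slc16a1, the widely expressed lactate transporter MCT1, was at 46.1, 42.8 and 47.0 CPM in normoxia, 51.8, 64.0 and 65.8 CPM in hypoxia and 63.9, 70.0 and 46.6 CPM in the knockdown-labelled libraries. Its hypoxia values were all above normoxia (0.42, SE 0.14, adjusted p = 0.15), whereas K3 lay within the normoxia range. Without the filter on low counts Slc16a1 passed in hypoxia and in knockdown-labelled against normoxia.

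Without N1 and H2, 5 of 34 members were called higher in hypoxia, Eno1, Gpi1, Ldha, Pfkfb3 and Pgk1, beside 3.77% of all genes, and 0 were called lower, beside 1.27%. Ldha then differed by 0.48 (adjusted p = 0.026), Gpi1 by 0.38 (adjusted p = 0.040) and Pfkfb3 by 0.93 (adjusted p = 0.000585). The part of heart RNA in this was not tested.

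**Figure D2:**
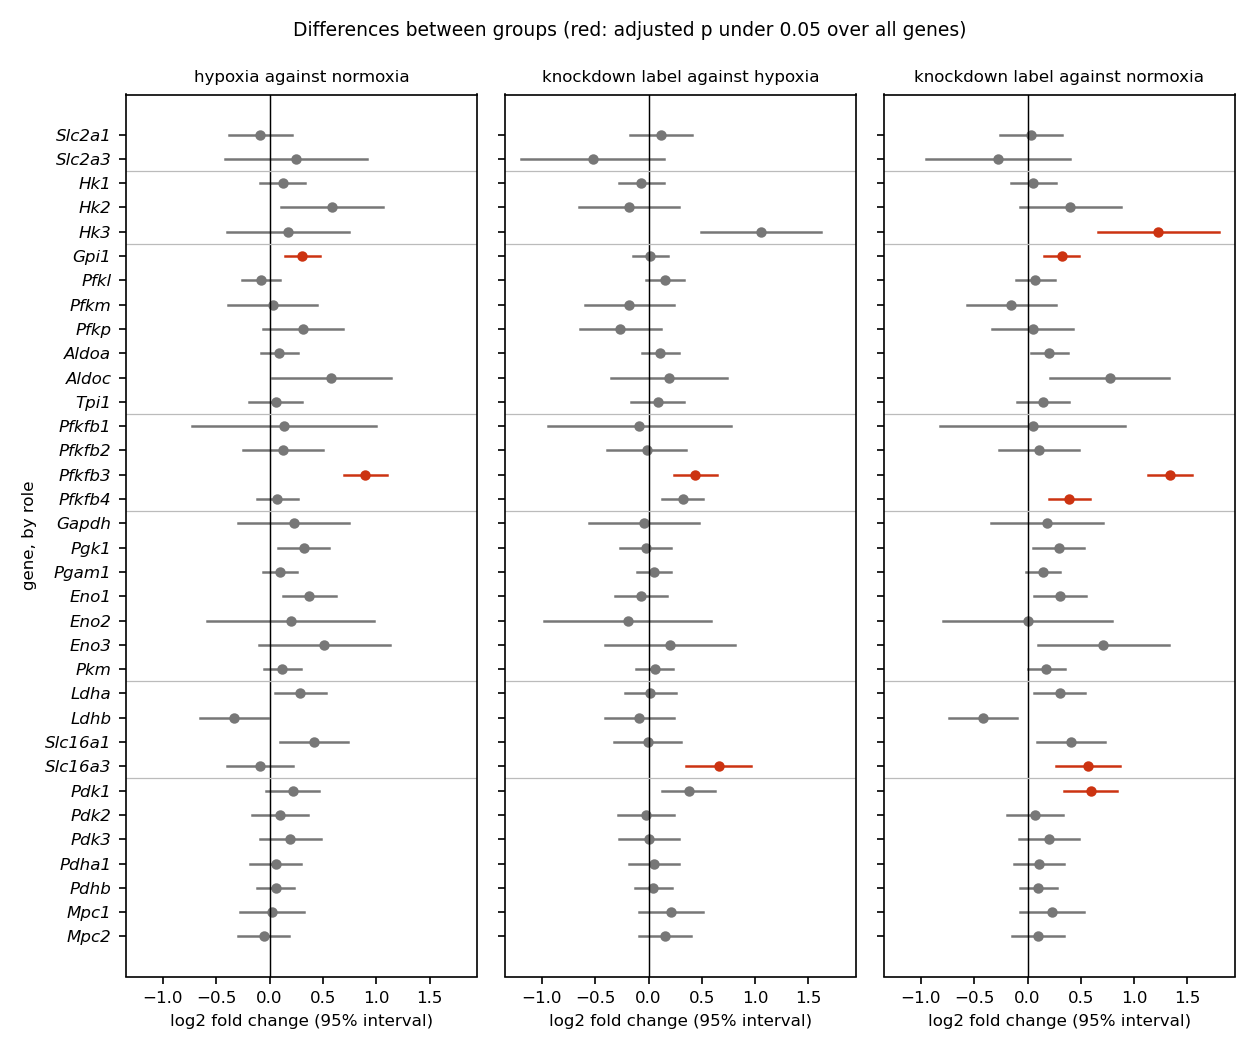
Log2 fold change of each of the 34 genes with its 95% interval, hypoxia minus normoxia, knockdown-labelled minus hypoxia and knockdown-labelled minus normoxia, with red points for adjusted p under 0.05. Red points are Pfkfb3 and Gpi1 in the first comparison, Pfkfb3 and Slc16a3 in the second, and Gpi1, Hk3, Pdk1, Pfkfb3, Pfkfb4 and Slc16a3 in the third, all to the right of 0.

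By its label, the third group is set against hypoxia to ask about a Hif-1α knockdown, of which the Hif1a transcript gave no called sign. Pfkfb3 and Slc16a3 were higher in the knockdown-labelled libraries and no member was lower. The 2 members called higher are 5.88% of the 34, beside 1.26% of all genes, and the 0 lower stand beside 0.449% (1.71% in either direction). At an unadjusted p under 0.05 there were 5 members (Hk3, Pdk1, Pfkfb3, Pfkfb4 and Slc16a3), all of them higher, which is 14.7% beside 11% of all genes, and DESeq2 and limma-voom called 0 members lower. The fold change was above 0 for 20 of 34 members, beside 49.4% of all genes, with a median of 0.03 over the members. For 6 members the knockdown-labelled libraries lay wholly above hypoxia, 17.6% beside 8.58% of all genes, and for 0 wholly below, beside 7.43%.

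Pfkfb3 was higher by a further 0.44 (SE 0.09, 1.36-fold, adjusted p = 0.038). The call held without N1, H2 or K2, and without N2, N3, H1, H3, K1 or K3 the adjusted p was 0.057 to 0.17. Slc16a3, the lactate exporter MCT4 (chr11:120948480-120960868, plus strand), was at 14.3, 12.3 and 12.8 CPM in normoxia, 13.4, 11.6 and 12 CPM in hypoxia and 16.4, 20.4 and 21.7 CPM in the knockdown-labelled libraries. Normoxia and hypoxia overlapped, and the knockdown-labelled libraries lay above both, by 0.66 over hypoxia (SE 0.14, 1.58-fold, adjusted p = 0.040). That call held without N1 or K1, and without any of the other 7 libraries the adjusted p was 0.062 to 0.19. With normoxia left out of the fit neither passed (adjusted p = 0.054 for Pfkfb3 and 0.080 for Slc16a3), nor did Slc16a3 with limma-voom (0.055). Ldha, Gpi1 and Pkm differed from hypoxia by 0.02, 0.02 and 0.06, with 95% intervals of -0.22 to 0.25, -0.15 to 0.18 and -0.11 to 0.23. Without N1 and H2, 3 of 34 members (Hk3, Pfkfb3 and Pfkfb4) were called higher, beside 1.13% of all genes, 1 (Pfkp) was called lower, beside 1.6%, and Slc16a3 was not called (adjusted p = 0.097).

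Against normoxia, 6 members were higher in the knockdown-labelled libraries: Gpi1, Hk3, Pdk1, Pfkfb3, Pfkfb4 and Slc16a3. They are 17.6% of the members, beside 4.79% of all genes, and the 0 called lower stand beside 3.44% (8.23% in either direction). This comparison and the one of hypoxia against normoxia share the normoxia libraries. At an unadjusted p under 0.05 there were 15 members, 44.1% beside 23.1% of all genes, of which Ldhb was the lower one, and DESeq2 and limma-voom called 0 members lower. The fold change was above 0 for 31 of 34 members, beside 49.3% of all genes, with a median of 0.18 over the members and -0.00 over all genes. In 15 members the knockdown-labelled libraries lay wholly above normoxia, 44.1% beside 14.5% of all genes, and Ldhb lay wholly below, beside 13.5%. Over any difference among the 3 groups the same 6 members were called, 17.6% beside 7.95% of all genes.

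Pfkfb3 exceeded normoxia by 1.34 (SE 0.09, 2.53-fold, adjusted p = 9.4e-06) and was called in 9 of 9 fits without 1 library. Pdk1 (chr2:71873224-71903858, plus strand), a kinase that switches pyruvate dehydrogenase off, was at 43.6, 51.1 and 41.9 CPM in normoxia, 58.3, 55.4 and 44.9 CPM in hypoxia and 70.6, 66.1 and 69.1 CPM in the knockdown-labelled libraries. H3 lay within the normoxia range, the knockdown-labelled libraries lay above all others, and they exceeded normoxia by 0.59 (SE 0.11, 1.51-fold, adjusted p = 0.0087). Its call was lost only without N3 (adjusted p = 0.0504). The other kinases among the members, Pdk2 and Pdk3, differed from normoxia by 0.07 and 0.20, and the subunits of the dehydrogenase itself, Pdha1 and Pdhb, by 0.11 and 0.10. None of the 4 passed (adjusted p 0.38 to 0.77).

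Hk3 (chr13:55005985-55021385, minus strand), a hexokinase found mainly in myeloid blood cells, was at 3.79, 7.92 and 6.54 CPM in normoxia, 7.97, 6.38 and 6.26 CPM in hypoxia and 12.6, 17.8 and 12.4 CPM in the knockdown-labelled libraries. The knockdown-labelled libraries lay above all others, by 1.23 over normoxia (SE 0.26, 2.34-fold, adjusted p = 0.015) and by 1.05 over hypoxia, which did not pass (SE 0.26, adjusted p = 0.081). The difference from hypoxia passed with DESeq2 (adjusted p = 0.0047), and in edgeR without the filter on low counts (0.0041), with normoxia left out of the fit (0.042) and without N1 (0.022). The call against normoxia was lost without N3 (adjusted p = 0.053) or K2 (0.064). Pfkfb4 (chr9:108991778-109032228, plus strand), another fructose 2,6-bisphosphate enzyme, was at 52.4, 51.2 and 51.8 CPM in normoxia, 52.8, 61.1 and 49.4 CPM in hypoxia and 65.9, 69.6 and 68.3 CPM in the knockdown-labelled libraries. Normoxia and hypoxia overlapped, and the knockdown-labelled libraries lay above both, by 0.39 over normoxia (SE 0.09, 1.31-fold, adjusted p = 0.020).

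Gpi1 and Slc16a3 exceeded normoxia by 0.32 (SE 0.07, adjusted p = 0.024) and 0.57 (SE 0.14, adjusted p = 0.029). The calls of Gpi1, Pfkfb4 and Slc16a3 against normoxia held in 5 of 9 fits without 1 library and were lost without N2, N3, K2 or K3, with adjusted p of 0.059 to 0.11. Without N1 and H2, 10 of 34 members were called higher than normoxia, the 6 above with Eno1, Eno3, Ldha and Pgk1, beside 4.59% of all genes, and 0 were called lower, beside 3.15%. That fit set K1 to K3, with 600, 39.2 and 454 CPM of cardiomyocyte markers, against N2 and N3, with 277 and 148 CPM, and the part of heart RNA in the muscle enolase Eno3 was not tested.

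**Figure D3:**
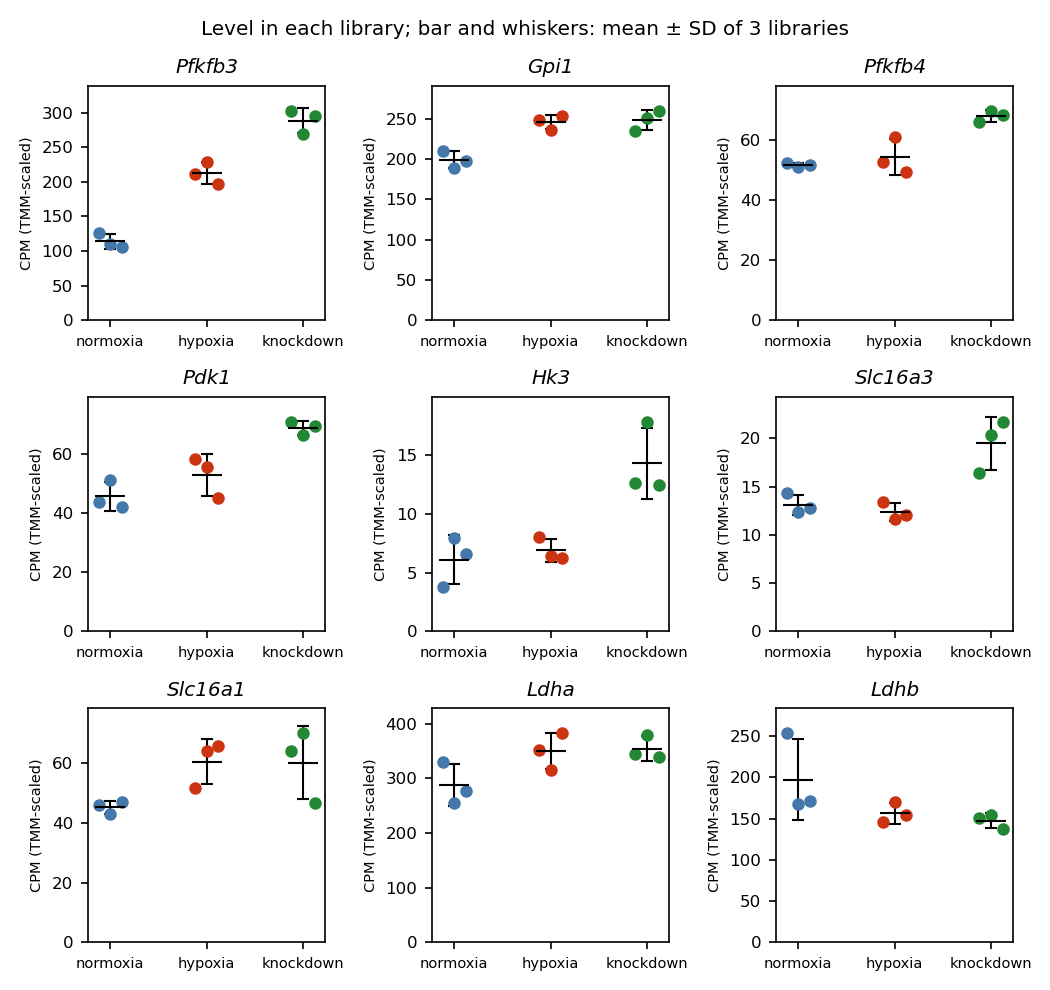
Level in CPM in each library for 9 of the genes given library by library, with points for the 3 libraries of each group and bars for their mean ± SD. The Pfkfb3 points separate into 3 levels around 114, 213 and 288 CPM, those of Hk3, Pdk1, Pfkfb4 and Slc16a3 are highest in the knockdown-labelled group, and the Ldhb points are led by 1 normoxia library at 253 CPM.

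The stretch upstream of the start site is shown for 4 members, picked with their results known. Pfkfb3 was called higher in all 3 comparisons, and Pdk1 only against normoxia in the knockdown-labelled libraries. Gpi1 was called in hypoxia and its stretch holds no core sequence, and Ldha is 1 of the lactate dehydrogenase genes. HIF dimers are known to bind DNA at the core ACGTG or GCGTG. Sequences are RefSeq reference sequence of GRCm38.p6, written 5′ to 3′ on the strand of the gene, ending at or shortly before the annotated start site, with annotated exons left out. Capitals mark ACGTG and GCGTG on either strand, so a match on the opposite strand reads CACGT or CACGC, and a run CACGTG holds ACGTG on both strands.
Pfkfb3, chr2:11502102-11502340, minus strand: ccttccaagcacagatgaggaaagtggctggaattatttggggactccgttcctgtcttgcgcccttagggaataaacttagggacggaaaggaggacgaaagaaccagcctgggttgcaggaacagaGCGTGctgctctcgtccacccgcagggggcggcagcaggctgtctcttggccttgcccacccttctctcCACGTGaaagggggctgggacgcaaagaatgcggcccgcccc
Pdk1, chr2:71872974-71873223, plus strand: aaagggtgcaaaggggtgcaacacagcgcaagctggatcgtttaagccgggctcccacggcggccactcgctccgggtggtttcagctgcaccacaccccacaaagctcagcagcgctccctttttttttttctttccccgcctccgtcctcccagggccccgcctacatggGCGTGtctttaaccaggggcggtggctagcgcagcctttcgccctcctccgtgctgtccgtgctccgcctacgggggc
Ldha, chr7:46845554-46845803, plus strand: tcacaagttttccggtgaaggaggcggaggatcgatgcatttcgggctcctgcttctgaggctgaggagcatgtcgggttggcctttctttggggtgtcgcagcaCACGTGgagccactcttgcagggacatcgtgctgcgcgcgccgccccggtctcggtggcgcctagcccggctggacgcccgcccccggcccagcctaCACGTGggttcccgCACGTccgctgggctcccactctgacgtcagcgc
Gpi1, chr7:34230337-34230419, minus strand: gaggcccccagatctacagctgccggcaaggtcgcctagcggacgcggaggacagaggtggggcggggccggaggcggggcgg
The Pfkfb3 stretch lies at a start site inside the gene, and the Ldha stretch at 1 of 2 start sites. By this count the Pfkfb3 stretch holds 3 matches, the Pdk1 stretch 1, the Ldha stretch 5 and the shorter Gpi1 stretch 0. The stretch at the outer start site of Pfkfb3 (chr2:11554078-11554179) covers only bases -250 to -149 from that site and holds 0. With annotated exons kept in, the 250 bases before that site hold 1 match, ACGTG at -60 to -56. The stretch at the other start site of Ldha (chr7:46846832-46847081) holds 1. Of the stretches printed, that of Ldha holds the most matches, with 2 runs of CACGTG that are each counted on both strands. Whether matches go with calls was not tested.

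Promoter entries were found for 33 of 34 members, 53 in all. In the 250 bases upstream of the start, on either strand, ACGTG or GCGTG stood in 40 of 53 entries (75.5%) and in 38.6% of 32851 entries over all genes. The core ACGTG stood in 37.7% of member entries and 16.6% of all entries, the core GCGTG in 52.8% and 28.2%, and CACGTG, which contains the first core, in 11.3% and 6.02%. Both cores are rich in G and C, and the median share of G and C in these windows was 60.4% for the members and 52.4% over all genes. A match is a description of the letters and not a bound site.

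Within enzyme families, shares were taken from levels per kilobase of exon, so that genes of different length can be set side by side. In normoxia the most abundant members per kilobase were Aldoa at 195, Ldha at 152, Ldhb at 151 and Pkm at 130 CPM per kilobase, followed by Gpi1 at 68.9 and Tpi1 at 67.7. Ldha and Ldhb did not differ beyond their spread in normoxia, nor did Gpi1 and Tpi1. Ldha made up 47.2%, 51.2% and 52.8% of lactate dehydrogenase level per kilobase in N1 to N3, 62.5%, 56.1% and 63.1% in H1 to H3 and 61.1%, 62.9% and 62.9% in K1 to K3. Every hypoxia and knockdown-labelled library lay above every normoxia library, from near equal shares to 56.1% or more of Ldha. In each group the library with the highest cardiomyocyte sum (N1, H2 and K1) had the lowest Ldha share. The part of heart RNA in these shares was not tested.

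Pfkfb3 took 44.3% ± 1.1, 58.4% ± 2.3 and 62.5% ± 1.1 (SD, n = 3) of the PFKFB level per kilobase in normoxia, hypoxia and knockdown-labelled libraries, while Pfkfb2 went from 21.5% to 16.4% and 12.9%. The 3 groups did not overlap in the Pfkfb3 share. Of the level per kilobase of Hk1, Hk2 and Hk3 together, Hk3 took 8.53%, 8.32% and 16.9%. Hk1 was the main form of these in every library at 59.6% to 73.9%. Pdk1 took 25.9%, 26.9% and 32.6% of the level per kilobase of Pdk1, Pdk2 and Pdk3 together. Pdk4, a pyruvate dehydrogenase kinase outside the members that was also measured, is left out of this share. These shares are descriptions of the same libraries and carry no test.

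**Figure D4:**
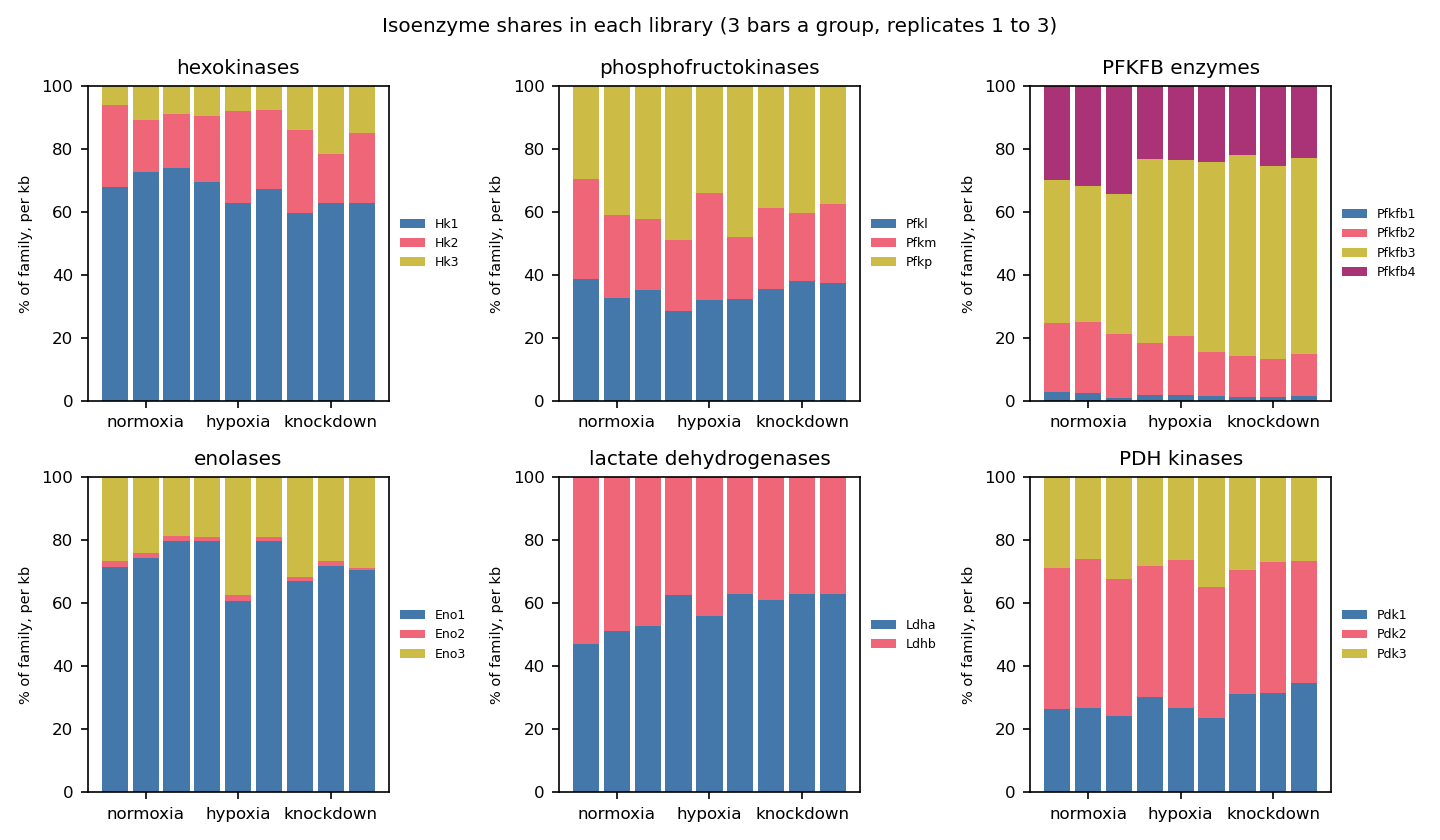
Share of each family's level per kilobase of exon (%) in each of the 9 libraries, 3 bars a group, for hexokinases, phosphofructokinases, PFKFB enzymes, enolases, lactate dehydrogenases and pyruvate dehydrogenase kinases. Each share is over the family's genes among the 34 members. The Pfkfb3 and Ldha parts are larger in hypoxia and knockdown-labelled bars than in normoxia bars, and the Hk3 part is largest in the knockdown-labelled bars.

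Some of these levels are uncertain because reads can be shared with near-identical copies. Gapdh, the glyceraldehyde 3-phosphate dehydrogenase and usually an abundant transcript, had 51 to 106 counts in a library. Of its 50-base stretches, 82.5% also occur in transcripts of other genes, among them 215 pseudogenes, and the 115 of these in the table summed to 53.2, 68.3 and 66.2 CPM in the 3 groups, beside 4.28, 5.01 and 4.86 CPM for Gapdh itself. Over 25% of such stretches were shared for 10 members, including 72.2% for Eno1, 68.0% for Pgk1, 34.4% for Pkm, 27.0% for Ldhb and 25.3% for Gpi1. The Mpc1 copy Mpc1-ps stood at 22.6 CPM in normoxia, above the 19.6 CPM of the mitochondrial pyruvate carrier gene Mpc1.

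Markers of other cells moved between these libraries, and in whole tissue more cells of a type and more RNA per cell cannot be told apart. The 8 neutrophil markers summed to 142, 380 and 300 CPM in N1 to N3, 275, 173 and 157 CPM in H1 to H3 and 401, 610 and 562 CPM in K1 to K3, with 3 of 8 called higher in the knockdown-labelled libraries than in hypoxia. Hk3 and Slc16a3 were highest in the same 3 libraries, and K2, with the highest neutrophil sum, had the highest Hk3. Slc16a3 was highest in K3 instead. Within normoxia Slc16a3 was highest in N1 (14.3 CPM), which had the lowest neutrophil sum, and lowest in N2 (12.3 CPM), which had the highest. The 8 macrophage and monocyte markers summed to 261 to 301, 370 to 472 and 493 to 617 CPM in the 3 groups, the same order as Pfkfb3. Of these markers 7 of 8 were called higher in the knockdown-labelled libraries than in normoxia. In hypoxia against normoxia 2 of 8 were called higher, and in knockdown-labelled against hypoxia 1 of 8. Within hypoxia, H2 was lowest in macrophage markers (370 CPM) and highest in Pfkfb3 (229 CPM). Within each group, the order of the libraries in Pfkfb3 was that of their cardiomyocyte sums. The 6 adipocyte markers summed to 49.8, 12.8 and 13.9 CPM in N1 to N3, 27.4, 66.0 and 18.6 CPM in H1 to H3 and 80.5, 26.9 and 89.9 CPM in K1 to K3. The 5 endothelial markers summed to 3428 to 3950, 2725 to 3143 and 2675 to 2825 CPM in the 3 groups, with 2 of 5 called lower in hypoxia and 3 of 5 lower in the knockdown-labelled libraries than in normoxia. The part of these cells in the results was not tested.

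The 8 proliferation markers summed to 65.3, 55.7 and 71.3 CPM in normoxia, 340, 99.1 and 301 CPM in hypoxia and 138, 125 and 155 CPM in the knockdown-labelled libraries, 8 of 8 called higher in hypoxia than in normoxia. The 8 T and NK cell markers, also 8 of 8 called higher, showed the same low H2, at 678, 212 and 584 CPM in H1 to H3. Pfkp, the platelet-type phosphofructokinase, was at 107, 73.8 and 100 CPM in those libraries and Eno1 at 171, 125 and 149 CPM, with H2 lowest in both. The muscle enolase Eno3 and the muscle phosphofructokinase Pfkm were instead highest in the heart-rich H2, at 47.1 and 51.8 CPM, against 21.6 to 25.1 and 28.4 to 34.1 CPM in H1 and H3. In the edgeR fit over all 9 libraries with the filter on low counts, none of Pfkp, Eno1, Eno3 and Pfkm passed in any of the 3 comparisons; without the filter Eno1 passed in hypoxia and Eno3 in knockdown-labelled against normoxia. No marker of the lists named here was at 0 in all libraries.

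**Figure D5:**
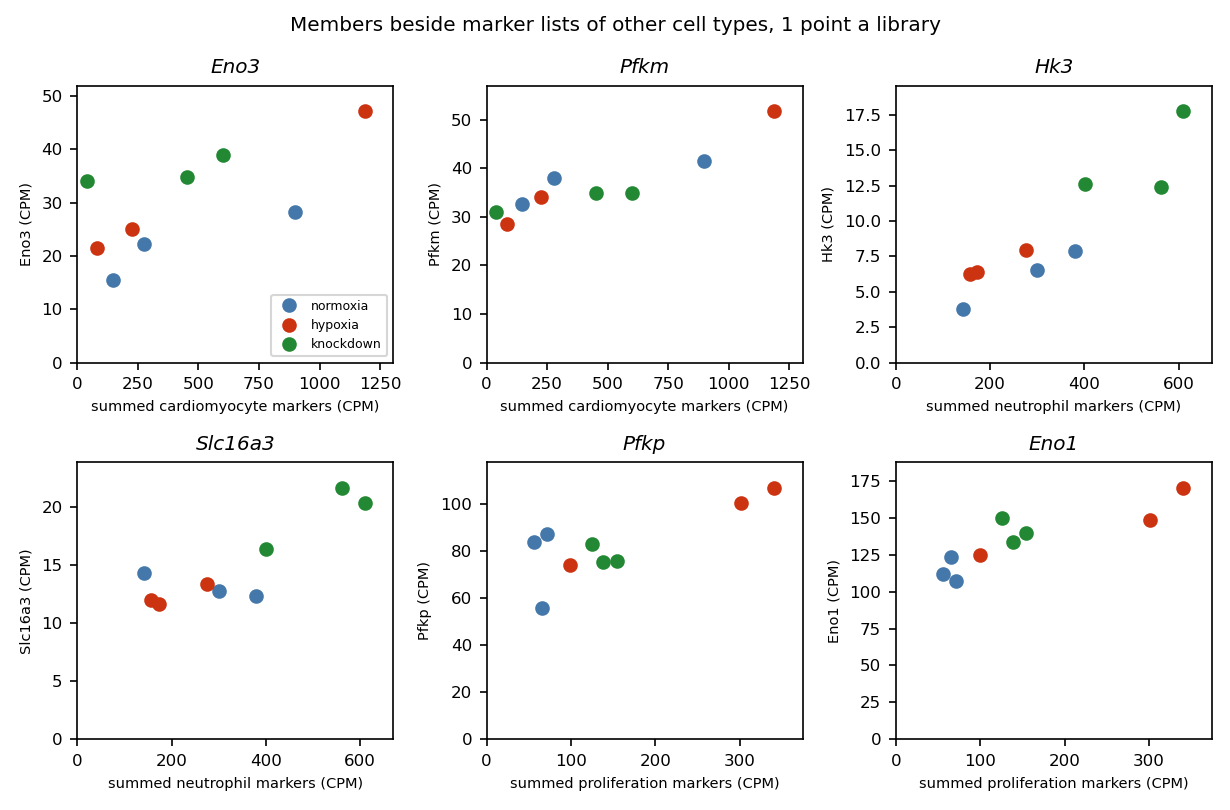
Level of 6 genes in CPM (vertical) against the summed CPM of a marker list (horizontal), 1 point a library coloured by group. Eno3 and Pfkm peak in the hypoxia library with the highest cardiomyocyte sum. Hk3 and Slc16a3 are highest in the 3 knockdown-labelled libraries with the highest neutrophil sums. Pfkp is highest in the 2 hypoxia libraries with the highest proliferation sums. Eno1 is highest in H1, which has the highest proliferation sum, followed by K2 at 150 CPM and H3 at 149 CPM.

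Of the other carbohydrate genes listed, 22 further transporters and glycolytic genes, 8 genes of pyruvate dehydrogenase and its regulation, 4 of glucose synthesis and 15 of the pentose phosphate and glycogen pathways could be tested. In hypoxia against normoxia Bpgm fell, 2.04% of 49 genes beside 4.22% of all genes. No other gene of these lists passed in edgeR over all 9 libraries with the filter on low counts. Bpgm, which makes the 2,3-bisphosphoglycerate that lowers the oxygen affinity of haemoglobin in red cells, was at 59.4, 100 and 107 CPM in normoxia, 47.5, 43.0 and 42.6 CPM in hypoxia and 29.4, 39.3 and 36.6 CPM in the knockdown-labelled libraries. The hypoxia libraries lay below normoxia without overlap, by -1.0 (SE 0.19, adjusted p = 0.017). The 5 erythroid markers found summed to 1306 to 3418, 565 to 673 and 159 to 237 CPM in the 3 groups, and 4 of 5 fell in hypoxia; their part in the Bpgm result was not tested.

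Between the knockdown-labelled and hypoxia libraries 0 of these genes passed in edgeR or limma-voom, DESeq2 called 2 of 49 (Pck2 and Pygl), beside 3.23% of all genes, and 6 of 49 had an unadjusted p under 0.05 in edgeR (12.2%, beside 11% of all genes). Against normoxia, Bpgm was lower by -1.34 (SE 0.19, adjusted p = 0.0017) and 5 genes were higher, together 12.2% of 49 genes beside 8.23% of all genes. G6pdx, which opens the pentose phosphate pathway, was higher by 0.44 (adjusted p = 0.011), and Tkt, a later enzyme of that pathway, by 0.44 (adjusted p = 0.022). Pygl, a glycogen phosphorylase, was higher by 0.60 (adjusted p = 0.013), Pck2, the mitochondrial phosphoenolpyruvate carboxykinase, by 0.48 (adjusted p = 0.0081) and the transporter Slc2a6 by 1.56 (adjusted p = 0.028). In the 8 genes of the pyruvate dehydrogenase list 0 passed in any of the 3 comparisons in edgeR with the filter on low counts, DESeq2 or limma-voom. In edgeR 4.22%, 1.71% and 8.23% of all genes passed. An unadjusted p under 0.05 was found for 0 of the 8, beside 17.5%, 11% and 23.1% of all genes. Without the filter, edgeR called Pdk4 in both comparisons with normoxia. With it, Pdk4 differed from normoxia by -1.18 in hypoxia (adjusted p = 0.32) and by -1.08 in the knockdown-labelled libraries (adjusted p = 0.29). N1 stood at 72.5 CPM and the other libraries at 9.80 to 24.0 CPM.

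Summed over all 34 members, the level was 2957, 2651 and 2709 CPM in normoxia, 3184, 3130 and 3149 CPM in hypoxia and 3233, 3399 and 3288 CPM in the knockdown-labelled libraries. Normoxia was lowest and the knockdown-labelled libraries highest, without overlap between the 3 groups, and no test was made of this sum. Pfkfb3 is part of the sum, and its group means were 114, 213 and 288 CPM. Between H1 and K1, the highest hypoxia sum and the lowest knockdown-labelled sum, it went from 3184 to 3233 CPM, and Pfkfb3 from 211 to 302 CPM. From H2 to K2 the sum went from 3130 to 3399 CPM and Pfkfb3 from 229 to 268 CPM. From H3 to K3 they went from 3149 to 3288 CPM and from 197 to 294 CPM. The replicate numbers were not taken to pair the libraries. The median difference between the knockdown-labelled and hypoxia libraries was 0.03 over the members.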

How the data were processed

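Per the labels' protocols, libraries of lung total RNA were built with NEBNext Ultra reagents. The submitters' processing notes name bcl2fastq, HISAT2, TopHat, StringTie, limma, DESeq and genome build mm10; for versions, the counting program and strand handling, nothing is given in the sources used. The deposited values are raw read counts per gene, whole numbers without normalization. Of 30388 gene identifiers shared with GENCODE M21 of GRCm38, the authors' table put 639 at the same coordinates, so positions and exon lengths were taken from GENCODE M21 by identifier, and promoter sequences from RefSeq GRCm38.p6. Without known strand handling, reads of a gene and of an antisense or overlapping neighbour may be mixed.

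Genes were kept by filterByExpr (17578 of 30865) and libraries scaled by TMM (factors 0.976 to 1.03). A quasi-likelihood model was fitted over all 9 libraries with 1 coefficient a group in edgeR 4.0.16 (R 4.3.3), with 6 residual and 4.79 prior degrees of freedom; the common biological variation was 17.3%. The 3 pairwise contrasts were tested two-sided with Benjamini-Hochberg adjustment over all genes at 0.05. A standard error is the fold change divided by the root of its F statistic. CPM values and fold changes carry counting error at 15566485 to 18046442 counts a library, where 3 counts are 0.166 to 0.193 CPM. Within groups, the chi-square between 2 libraries divided by its degrees of freedom was 11.9 to 23.5, so all 9 were counted as separate libraries. The procedure was tested on simulated data.

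The members, the other carbohydrate genes and the marker lists were chosen with earlier results of these data known. All members may be named; those past the threshold in any contrast and the main control steps (Slc2a1, Hk2, Pfkfb3, Pkm, Ldha, Ldhb, Pdk1, Slc16a1 and Slc16a3) are given library by library, and other listed genes past the threshold are named; Eno1, Pfkp, Eno3 and Pfkm were singled out after their values were seen. Alternatives were DESeq2 1.42.0 (Wald test, and its size factors in edgeR), limma-voom (limma 3.58.1), other filters, fits of 6 libraries, the replicate number as a block, and each library left out.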

Additional observations from a re-analysis of the deposited data

How the results depend on the processing

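Members called higher numbered 2 in hypoxia against normoxia, 2 in knockdown-labelled against hypoxia and 6 in knockdown-labelled against normoxia, and these counts stayed as they were with DESeq2's size factors and with a filter of 1 CPM in 3 libraries. In hypoxia against normoxia the count was 1 with limma-voom, 1 with only the 6 libraries compared, 4 without the filter on low counts and 5 without N1 and H2. In knockdown-labelled against hypoxia it was 1 (Pfkfb3) with limma-voom and 1 (Hk3, in place of Pfkfb3 and Slc16a3) with only the 6 libraries compared, and 1 member was lower without N1 and H2. Against normoxia it was 10 without N1 and H2, and without the filter 1 member (Ldhb) was lower. Leaving out 1 library gave 1 to 3, 0 to 3 and 1 to 8 members higher in the 3 comparisons. Over all genes, hypoxia against normoxia gave 487 higher and 255 lower, 814 and 495 with DESeq2's Wald test, 851 and 442 without the filter, 276 and 168 with 6 libraries, 267 higher with limma-voom, and 138 to 750 higher and 71 to 248 lower with 1 library left out. Knockdown-labelled against hypoxia gave 222 higher and 79 lower, 362 and 205 with the Wald test, 376 and 268 without the filter, 40 lower with limma-voom, 286 lower without N1 and H2, and 159 to 242 higher and 30 to 243 lower with 1 library left out. Knockdown-labelled against normoxia gave 842 higher and 604 lower, 927 lower with the Wald test, and 457 to 935 higher and 258 to 632 lower with 1 library left out. The cause of these shifts was not tested. With 1 library left out, uncalled differences that turned sign ranged in hypoxia against normoxia from -0.0716 to 0.411 for Hk3 and -0.0156 to 0.136 for Pfkfb4, in knockdown-labelled against hypoxia from -0.413 to 0.0109 for Hk2, -0.0215 to 0.0547 for Gpi1, -0.0618 to 0.0802 for Ldha and -0.137 to 0.141 for Slc16a1, and against normoxia from -0.0527 to 0.152 for Slc2a1. Without N1 and H2 the sign also turned for Hk3 (-0.0112), Pfkfb4 (-0.00213) and Slc16a3 (0.0277) in hypoxia, and for Gpi1 (-0.0275), Pkm (-0.0021), Ldha (-0.068) and Slc16a1 (0.0185) in knockdown-labelled against hypoxia. Same-numbered libraries deviated from their group means with correlations of -0.42 to 0.27, so the numbers were not taken to pair the samples, and a library correlated best with its own number in 5 of 18 comparisons. With the replicate number as a block the members higher were 1, 0 and 4, and over all genes 282 were higher and 118 lower in hypoxia, 39 lower in knockdown-labelled against hypoxia and 352 lower against normoxia. With 3 libraries a group, an uncalled difference is not detectable at this depth and spread rather than absent, and levels of members that share sequence with pseudogenes are uncertain.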
